A study of Mus musculus with 8 samples.

Results

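The 99 genes described here encode subunits of respiratory complexes I, III and IV and of the ATP synthase, or proteins that help to build them. They are the gene symbols that begin with mt-, with Nduf followed by a, b, c, s or v, with Cox and a digit from 4 to 8, with Uqcr or with Atp5, and that had 20 or more unique molecular identifiers (UMIs, each standing for 1 captured transcript) over the 8 libraries. Of 27998 listed genes, 101 matched these prefixes, and Cox7b2 with 9 UMIs and Cox8c with 4 UMIs fell under the minimum. The 13 mt- genes are encoded by mitochondrial DNA, with 7 in complex I, 1 in complex III, 3 in complex IV and 2 in the ATP synthase. The 86 nuclear genes comprise 36 of complex I, 8 of complex III, 18 of complex IV, 15 of the ATP synthase and 9 for assembly factors and related proteins.

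Complexes I, III and IV sit in the inner mitochondrial membrane, pass electrons on to oxygen and pump protons, and the ATP synthase uses the proton gradient to make ATP. Each of these complexes combines core subunits made inside the mitochondrion from mitochondrial DNA with many more subunits that are encoded in the nucleus and imported. Several subunits of complex IV exist as isoforms from separate genes that are used in different tissues. Hair cells (HCs), the mechanosensory cells of the cochlea, and the neurons that contact them are electrically active cells, whereas supporting cells (SCs) such as Deiters' and pillar cells surround the HCs.

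Dissociated mouse cochleae were profiled with droplet 3′ single-cell RNA-seq in 4 groups: Coch + Tmx P26 (3 libraries), Coch + Tmx P33 (2 libraries), Coch P12 (2 libraries) and Coch P33 (1 library). Mice of every group, the uninduced ones included, carried Fgfr3iCre+, Atoh1-HA+, Chrna9-GFP+ and Rosa26-CAG-loxP-stop-loxP-tdTomato+. In the Coch + Tmx groups tamoxifen, given at P12-13, activated the recombinase that the Fgfr3 promoter drives in Deiters' and pillar cells, so that these cells expressed the Atoh1-HA transgene and tdTomato, and some of them became converted HCs (cHCs). Both P12 libraries were uninduced and 5 of the 6 later ones were labelled as induced, so age and labelled induction cannot be told apart between them. The study calls its replicates biological, and the labels do not say which mice stand behind a library.

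The libraries held 3972800 to 13423524 UMIs, and of 8061 barcodes 6065 were kept as cells. The 99 genes took between 6.55% and 9.78% of the UMIs of a library's cells. Cells were clustered without these genes and named "-like" from marker genes, and a library was used for a class where it held 5 or more of its cells. The HC-like class comprised 72 cells, the cHC-like class 120 cells and the SC-like class 127 cells. All 12 HC markers were detected in the HC-like class and in the cHC-like class as well. In the library labelled Coch + Tmx P26 replicate 3, Atoh1 stood at 12.4 CPM (UMIs per 1000000 UMIs of the cells), against 90.8 to 509 in the other Coch + Tmx libraries and 18.3 to 23.4 in the uninduced ones, and it held 0 cHC-like cells, against its label. Summed markers of other cells were present in the HC-like sums, with the SC markers at 4367 to 19215 CPM (17603 to 41923 in the SC-like sums, Hes5 at 0 in the HC-like class) and hemoglobin and other erythroid genes at 869 to 19436 CPM. In the cHC-like sums the SC markers stood at 4842 to 7716 CPM and the cHC markers at 7672 to 14167 CPM, against 122 to 777 CPM for the cHC markers in SC-like sums. HC-like sums held the cHC markers at 1567 to 8195 CPM. The HC markers stood at 5354 to 50196 CPM in HC-like, 1491 to 2465 in cHC-like and 24.6 to 362 in SC-like sums. The part of RNA from other cells in the results was not tested.

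The share of UMIs from the 13 mt- genes differed widely among the classes, and was high on average in HC-like, cHC-like, neuron-like, glia-like and Reissner membrane-like cells. In HC-like cells it was 9.10% in Coch + Tmx P26 replicate 1, 10.9% and 11.3% in the Coch + Tmx P33 libraries, 17.7% and 18% in the Coch P12 libraries and 45.7% in Coch P33, a mean of 18.8% ± 13.7 (SD, n = 6 libraries). The Coch P33 value came from 6 cells with a median of 6062 UMIs, and the mean without that library was 13.4%. In cHC-like cells the share was 6.3% and 6.55% in Coch + Tmx P26 replicates 1 and 2 and 13.8% and 13.0% in the Coch + Tmx P33 libraries (9.91% ± 4.04, n = 4). The 2 ages did not overlap among the cHC-like sums, with 6 cHC-like cells in Coch + Tmx P26 replicate 2. In the libraries as a whole the mt- share was also lower at P26, at 4.26% and 3.90% in these replicates, against 6.60% and 6.32% in the Coch + Tmx P33 libraries. SC-like cells held 4.56% in the library labelled Coch + Tmx P26 replicate 3, 5.84% and 5.63% in the Coch + Tmx P33 libraries, 7.69% and 8.93% in the Coch P12 libraries and 6.09% in Coch P33 (6.46% ± 1.58, n = 6). Every HC-like sum therefore lay above every SC-like sum, with the closest values at 9.10% and 8.93%. Of the cHC-like sums, those of Coch + Tmx P33 lay above every SC-like sum and those of Coch + Tmx P26 within the SC-like range. Neuron-like cells held 9.01% ± 2.88 (n = 6), Reissner membrane-like cells 8.39% ± 1.58 (n = 8) and nonsensory epithelial-like cells 6.24% ± 1.08 (n = 8). Glia-like cells held 47.1% in Coch P12 replicate 1 and 4.24% to 11.7% in the other 4 libraries, with a median of 7.27%. The spreads of neighbours in this order overlapped. Stromal-like cells at 3.92% ± 0.813 (n = 8) and macrophage-like cells at 3.55% ± 0.883 (n = 8) were lower, and erythroid-like cells at 1.26% and neutrophil-like cells at 1.25% stood at the bottom. In erythroid-like cells the UMIs behind this share include those of hemoglobin genes, and their part in the low share was not tested.

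Counted by cell, 59 of 72 HC-like cells and 63 of 120 cHC-like cells had 10% or more mt- UMIs, against 11 of 127 SC-like, 40 of 117 neuron-like, 35 of 116 glia-like and 64 of 297 Reissner membrane-like cells. At 25% or more the counts were 10 HC-like, 2 cHC-like, 1 SC-like, 22 neuron-like and 19 glia-like cells. The median UMIs per cell, averaged over libraries, were 9698 in HC-like, 13136 in cHC-like, 12778 in SC-like and 23581 in neuron-like cells. HC-like cells thus had the lowest depth of the classes in this list. The part of depth in the mt- share was not tested.

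The nuclear genes were ordered differently, with neuron-like cells alone at the top. Nuclear genes are given as nCPM, UMIs per 1000000 UMIs of all nuclear genes, so that the mt- share does not enter their level. UMIs from the 86 nuclear genes summed to 68276 ± 7165 nCPM in neuron-like cells (n = 6), and the lowest neuron-like library, at 54766, lay above the highest HC-like sum of 47101. Reissner membrane-like cells stood at 43445 ± 3105 (n = 8), HC-like cells at 40310 ± 4636 (n = 6), SC-like cells at 37483 ± 3276 (n = 6) and cHC-like cells at 33958 ± 3301 (n = 4), with overlapping ranges. The mt- share lay above every SC-like library in HC-like cells and in cHC-like cells of the Coch + Tmx P33 libraries, but not in cHC-like cells of the P26 libraries. The nuclear levels of both classes overlapped the range of the SC-like libraries (33420 to 41851). The mt- UMIs per nuclear-member UMI had a median of 3.92 over the HC-like libraries (2.23 to 23.7) and a mean of 3.22 ± 1.20 in cHC-like cells, against 1.84 ± 0.430 in SC-like and 1.5 ± 0.583 in neuron-like cells. By complex, the neuron-like sums were 20185 ± 2139 nCPM for complex I, 7580 ± 291 for complex III, 24393 ± 4430 for complex IV and 15577 ± 829 for the ATP synthase, each above the highest HC-like, cHC-like and SC-like library. For complex IV, the oxygen-consuming end of the chain, the HC-like mean was 12037 ± 2181 and the SC-like mean 11605 ± 670 nCPM.

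**Figure D1:**
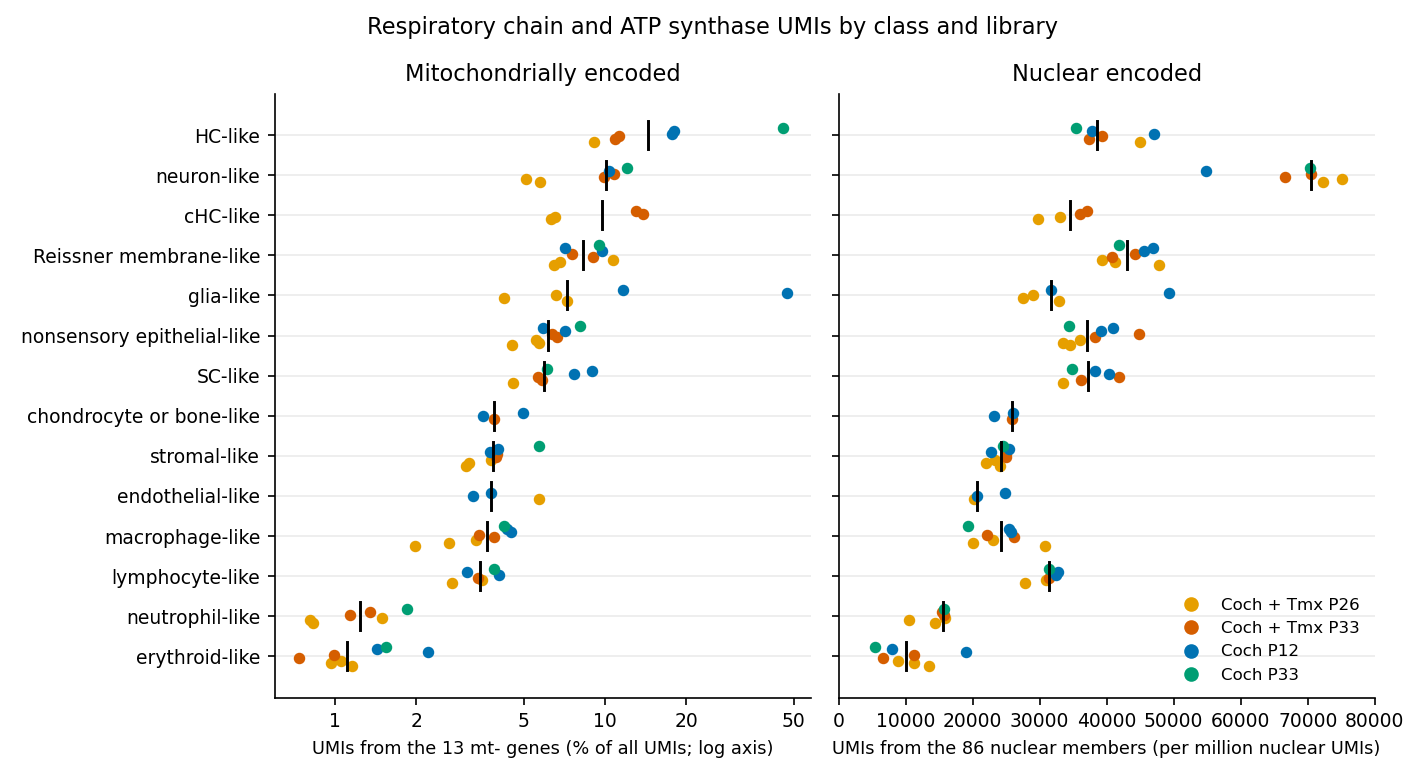
UMIs from the 13 mt- genes as a percent of all UMIs (left, log axis) and UMIs from the 86 nuclear genes in nCPM (right) for each class (rows); each point is 1 library with 5 or more cells, coloured by group, and the black bar is the median. HC-like cells lie at the top on the left, with the Coch P33 point at 45.7%, while the neuron-like points stand apart from the rest on the right.

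In the comparison of cHC-like with SC-like cells, all 12 tested mt- genes were higher in cHC-like cells, while few nuclear genes were. This comparison sets the converted cells beside the SC-like cells of the same libraries, and 2 libraries, Coch + Tmx P33 replicates 1 and 2, held enough cells of both classes (41 and 41 cHC-like cells, 16 and 11 SC-like cells). The sums of each class in each library were tested across 5802 genes with edgeR's quasi-likelihood test and the library as a block, with a call at a Benjamini-Hochberg adjusted p under 0.05, which 20.1% of all tested genes passed as higher and 16.2% as lower. Of the SC-like cells, 13 of 16 and 5 of 11 belonged to a Hes5-led subcluster that was found in 4 of the 5 Coch + Tmx libraries and in no uninduced one, and that also held cHC-like cells, so they are not the SCs from before induction. Values in the comparisons are CPM of all UMIs after scaling by the trimmed mean of M-values (TMM), fold changes are log2 values with their standard error, and adjusted p values are from edgeR with Benjamini-Hochberg correction.

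Among the mt- genes the 4 highest log2 fold changes were those of complex I genes, with mt-Atp8 next. Expression of mt-Nd3 was 822 and 893 CPM in the SC-like sums and 3943 and 4060 CPM in the cHC-like sums, a log2 fold change of 2.22 ± 0.20 (adjusted p = 1.9e-27). The values for mt-Nd4l were 177 and 167 against 643 and 823 CPM (2.05 ± 0.27), and those for mt-Nd1 were 4334 and 4791 against 17631 and 16376 CPM (1.90 ± 0.16). The log2 fold changes of mt-Nd2, mt-Nd4 and mt-Nd5 were 1.97, 1.69 and 1.55. In complex IV, mt-Co3 rose by 1.45 ± 0.14 and mt-Co2 by 1.29 ± 0.15, and the complex III gene mt-Cytb by 1.05 ± 0.15. The ATP synthase gene mt-Atp8 rose by 1.83 ± 0.28 and mt-Atp6 by 0.77 ± 0.14. The smallest difference was that of mt-Co1, the catalytic subunit of complex IV, at 13479 and 8322 against 18403 and 14242 CPM (0.61 ± 0.15, adjusted p = 0.000178). With cells of 10% or more mt- UMIs left out, a filter that acts on the same measure, 2 genes (mt-Nd3 and Ndufv3) of 81 passed, with 19.3% of all genes called, and mt-Co1 had a log2 fold change of -0.12. Of the mt- UMIs, the mt-Nd genes gave 27.1% ± 1.64 in cHC-like cells (n = 4), 25% ± 3.64 in HC-like cells (n = 6) and 19.7% ± 2.44 in SC-like cells (n = 6). The mt-Co1 part was 12.9% ± 1.91, 13.8% ± 2.93 and 19.0% ± 4.53. For mt-Nd the cHC-like libraries (25.3% to 29.1%) lay above the SC-like ones (17.0% to 23.8%). HC-like libraries overlapped SC-like ones in both measures, as cHC-like libraries did for mt-Co1. This make-up was not tested. The transcripts of mt-Atp8 and mt-Atp6, and of mt-Nd4l and mt-Nd4, overlap, so that counts within each pair may be shared.

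Of 76 nuclear genes tested, 5 were higher in cHC-like cells and 12 were lower, 6.58% and 15.8%, so that the share that fell was close to that of all genes and the share that rose was under it. Their median log2 fold change was -0.23, against 0.10 over all tested genes. Ndufv3, an accessory subunit of the NADH-binding arm of complex I, was the highest, with 113 and 217 CPM in the SC-like sums and 912 and 752 CPM in the cHC-like sums (2.41 ± 0.27, adjusted p = 9.04e-17). Ndufs1, which carries iron-sulfur clusters of the same arm, stood at 24.6 and 8.35 against 47.4 and 68.4 CPM (1.59 ± 0.64, adjusted p = 0.0386). Its SC-like sums held only 5 UMIs and 1 UMI. Cox7a1, the isoform of subunit 7a known from heart and skeletal muscle, stood at 39.4 and 33.4 against 91.3 and 140.4 CPM (1.57 ± 0.45, adjusted p = 0.00257). Atp5b, the catalytic subunit of the ATP synthase, rose by 0.87 ± 0.25 and Ndufa8 by 0.83 ± 0.27. In each of these 5 genes both cHC-like sums lay above both SC-like sums.

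The 12 nuclear genes that fell did so by less. Uqcrb of complex III stood at 694 and 893 against 365 and 432 CPM (-0.99 ± 0.23, adjusted p = 0.00015). Cox6c of complex IV stood at 1532 and 1745 against 1045 and 990 CPM (-0.68 ± 0.20, adjusted p = 0.00306). The others were Ndufs4, Ndufs7 and Ndufb2 of complex I, Uqcrq of complex III, Cox7c and Ndufa4 of complex IV, and Atp5d, Atp5j, Atp5g2 and Atp5e of the ATP synthase, between -0.85 for Ndufs4 and -0.51 for Ndufa4. With DESeq2's Wald test 13 of the 29 calls were made, the 12 mt- genes and Ndufv3, with 6.05% of all genes called, and none of the 12 nuclear genes was called lower. Without a filter on low counts Uqcrb and Cox6c were the nuclear genes still called lower, and 20 members were called in all, 20.6%, against 14.5% of all genes. The long nuclear RNA Malat1, whose share is often read as a sign of RNA quality, was lower in cHC-like cells as well (-0.91 ± 0.14), as was the stress-response gene Jun (-0.82 ± 0.28), and their part in these results was not tested.

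**Figure D2:**
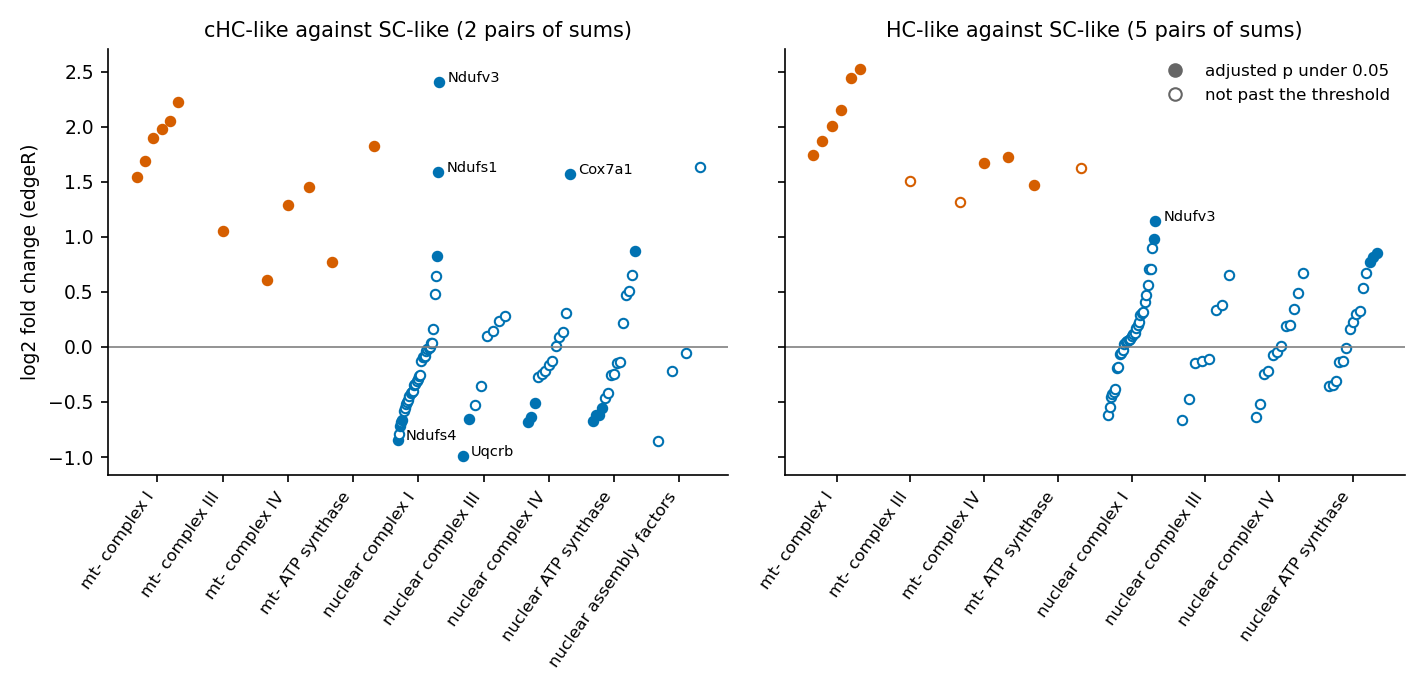
Log2 fold changes of the tested genes by complex (columns; orange, mt- genes; blue, nuclear genes) in cHC-like against SC-like cells (left, 2 pairs of sums) and HC-like against SC-like cells (right, 5 pairs); filled points passed an adjusted p under 0.05. The mt- genes lie above 0 in both panels, and the nuclear genes spread on both sides of 0 with Ndufv3 at 2.41 and 1.14.

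In cHC-like against SC-like cells of the Coch + Tmx P33 libraries, Ndufv3 and Cox7a1 had the highest log2 fold changes of nuclear complex I and complex IV genes. For Cox7a1 this did not extend to all libraries. Its SC-like value in Coch P12 replicate 2, 69.9 nCPM, lay above the cHC-like values of Coch + Tmx P26 replicates 1 and 2, 49.7 and 60.8 nCPM. The promoter windows of both genes are shown (RefSeq, build GRCm38.p6, from 250 bases before to 50 bases after the annotated start, in the direction of the gene). Ndufv3 lies on chromosome 17 from 31520115 to 31531326 and its window is chr17:31519865-31520164 on the plus strand. Cox7a1 lies on chromosome 7 from 30184171 to 30186030 and its window is chr7:30183921-30184220 on the plus strand. Capitals mark matches to GGGCGG, the GC box, of which Ndufv3 has 2 and Cox7a1 none.
Ndufv3: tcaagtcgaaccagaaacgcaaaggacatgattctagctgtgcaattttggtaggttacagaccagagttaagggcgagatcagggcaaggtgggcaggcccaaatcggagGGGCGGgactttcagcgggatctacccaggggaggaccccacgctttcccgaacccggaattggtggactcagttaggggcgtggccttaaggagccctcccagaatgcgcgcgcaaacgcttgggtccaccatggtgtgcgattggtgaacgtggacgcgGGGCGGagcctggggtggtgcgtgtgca
Cox7a1: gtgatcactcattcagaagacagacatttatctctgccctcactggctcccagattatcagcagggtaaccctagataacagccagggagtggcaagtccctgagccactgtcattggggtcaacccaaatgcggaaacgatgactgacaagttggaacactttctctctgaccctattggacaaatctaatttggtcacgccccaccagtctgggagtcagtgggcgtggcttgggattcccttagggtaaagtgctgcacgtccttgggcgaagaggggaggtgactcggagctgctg

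Within the induced lineage the mt- share and Ndufv3 were ordered along 3 subclusters, a Hes5-led one with 42 cells, a Gng8- and Chrna9-led one with 48 cells and a Ccer2- and Pou4f3-led one with 49 cells. Hes5 is a Notch target of SCs, Chrna9 encodes the acetylcholine receptor subunit of HCs whose promoter drives the GFP reporter, and Pou4f3 is a transcription factor of HCs. These subclusters were drawn without the genes described here, and their values are given as a description. In Coch + Tmx P33 replicate 1 the mt- share was 6.04% in the Hes5-led, 11.8% in the Gng8- and Chrna9-led and 15% in the Ccer2- and Pou4f3-led cells. In replicate 2 it was 5.84%, 11.8% and 15.2% in the same order. Coch + Tmx P26 replicate 1 had 5.95% in its Hes5-led and 6.21% in its Gng8- and Chrna9-led cells, and held 1 Ccer2- and Pou4f3-led cell. The second value was thus far above the first in both P33 libraries and close to it in the P26 library. The nuclear genes as a sum stayed at 35405, 35205 and 36294 nCPM in Coch + Tmx P33 replicate 1 and at 38738, 36530 and 36974 in replicate 2.

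Ndufv3 stood at 90.3, 811 and 1108 nCPM along the 3 subclusters in Coch + Tmx P33 replicate 1 and at 219, 648 and 1069 in replicate 2. In Coch + Tmx P26 replicate 1 it was 151 in the Hes5-led and 474 in the Gng8- and Chrna9-led cells, so that this gene was higher in the second subcluster in all 3 libraries. Uqcrb went the other way in the P33 libraries, from 667 to 498 and 346 nCPM in replicate 1 and from 684 to 495 and 411 in replicate 2. The Hes5-led cells were split between classes, with 19 of the 42 in the SC-like and 23 in the cHC-like class, and 13 of the 32 cHC-like cells of Coch + Tmx P26 replicate 1 were Hes5-led, against 2 of 41 and 7 of 41 in the P33 libraries.

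**Figure D3:**
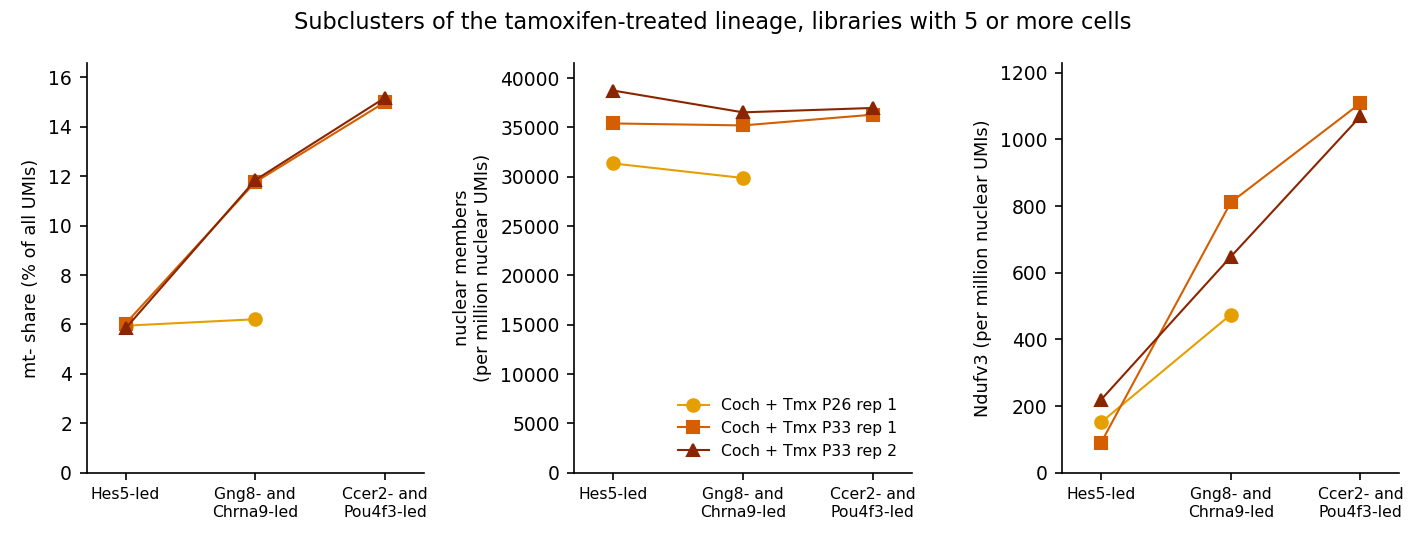
The mt- share (left), the sum of the 86 nuclear genes (middle) and Ndufv3 (right) in the 3 subclusters of the induced lineage; each line joins the values of 1 library, and subclusters with fewer than 5 cells of a library are left out. The mt- share reaches 15% and 15.2% and Ndufv3 1108 and 1069 nCPM in the Ccer2- and Pou4f3-led cells of the P33 libraries, while the nuclear sum stays between 35205 and 38738 nCPM in them.

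HC-like cells were compared with SC-like cells in 5 libraries, and 9 of 12 tested mt- genes and 5 of 68 tested nuclear genes were higher in HC-like cells. Among the 1881 genes tested, 33.1% were called, 19.2% as higher and 13.8% as lower. All 12 mt- genes were higher in HC-like cells in all 5 pairs, with log2 fold changes from 1.32 to 2.53, and mt-Co1 (adjusted p = 0.0509), mt-Atp6 (0.0547) and mt-Cytb (0.0601) missed the threshold in edgeR's test. The mt-Nd4l values were 186, 176, 525, 289 and 278 CPM in the SC-like sums of Coch + Tmx P33 replicates 1 and 2, Coch P12 replicates 1 and 2 and Coch P33, and 577, 399, 2995, 1966 and 6076 CPM in the HC-like sums of the same libraries (2.53 ± 0.45, adjusted p = 0.00298). For mt-Nd3 the SC-like values were 862, 941, 490, 1782 and 903 CPM and the HC-like values 2625, 2258, 2579, 9196 and 27544 CPM (2.44 ± 0.52, adjusted p = 0.007). Coch P33 gave the highest HC-like value for each mt- gene, and without it 12 members were called (25.5% of all genes), Ndufv3 and 11 mt- genes including the 3 that missed the threshold. Without Coch P12 replicate 1, 3 members were called (mt-Nd3, mt-Nd4l and Ndufv3, with 15.1% of all genes), and without Coch P12 replicate 2, 6 were (19.7% of all genes).

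The 5 nuclear genes that rose in HC-like cells were Ndufv3 (1.14 ± 0.27, adjusted p = 0.0124), Ndufa5 (0.98 ± 0.28) and 3 genes of the ATP synthase, Atp5o, Atp5b and Atp5c1, at 0.85, 0.82 and 0.77. None of the 68 nuclear genes was called lower, neither by edgeR nor by DESeq2, and their median log2 fold change was 0.09, against -0.05 over all tested genes. Ndufv3 stood at 119, 229, 305, 368 and 182 CPM in the SC-like sums and at 385, 336, 544, 728 and 637 CPM in the HC-like sums in the order given above, higher in HC-like cells of all 5 libraries. It was called in each of the 5 fits that left out 1 library, but not without a filter on low counts, where the calls were mt-Nd1, mt-Nd2, mt-Nd3 and mt-Nd4l. Atp5b and Atp5o were each called with all 5 libraries and in none of the fits that left out 1 library. Ndufv3 and Atp5b were thus called higher in both HC-like and cHC-like cells, in comparisons that share the SC-like sums of the 2 P33 libraries.

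Between cHC-like and HC-like cells of the same libraries, none of 87 tested members passed the threshold, with 7.53% of 4010 genes called (4.29% higher and 3.24% lower in cHC-like cells). By edgeR 4 members, 4.6%, had an unadjusted p under 0.05, against 22.7% of all genes, and DESeq2 called 0. The 3 libraries did not behave alike. For Cox7a1 the HC-like sums held 0, 32.3 and 41.6 CPM and the cHC-like sums 60.3, 105 and 159.7 CPM in Coch + Tmx P26 replicate 1 and Coch + Tmx P33 replicates 1 and 2 (1.93 ± 0.56, adjusted p = 0.0762). Ndufv3 stood at 462, 367 and 333 against 404, 1048 and 856 CPM in the same order (0.97 ± 0.45, adjusted p = 0.244). Coch + Tmx P26 replicate 1 held 5 HC-like cells, and without it 18 of 88 members were called, 20.5%, against 24.1% of all genes. These were 10 mt- genes, Ndufv3 (1.48), Cox7a1 (1.87), Ndufa8, Cox5b and Ndufaf6 as higher in cHC-like cells and Atp5j, Uqcrb and Ndufa5 as lower. The HC-like cells of these libraries were of mixed kinds, as an Ocm- and Slc26a5-led subcluster (markers of outer HCs) gave 5 of 5, 3 of 8 and 1 of 8 of them, and an Otof- and Slc17a8-led one (Slc17a8 marks inner HCs) the rest. Cox7a1 had 0 UMIs in the 40 Ocm- and Slc26a5-led cells of all libraries together and stood at 44.2 nCPM in the 32 Otof- and Slc17a8-led cells.

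Each of 14 classes was then compared with all other cells of the same libraries, at an adjusted p under 0.05 and a change of at least 2-fold, and 200 of 1353 class and member pairs passed (74 higher, 126 lower), against 32.8% of all class and gene pairs. The main feature among the nuclear genes was in neuron-like cells, where 37 of 83 were higher and 2 lower, with 21.3% of all genes higher and 28.3% lower in that class, and 65 were higher at any fold, as were 30.7% of all genes. The median nuclear log2 fold change there was 0.80, against -0.10 over all genes. The neuron-like count ranged from 29 to 37 when single libraries were left out, and was 24 with DESeq2 size factors. None of the 13 mt- genes reached 2-fold in neuron-like cells, and 11 were higher at any fold.

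In neuron-like cells the leading members came from several complexes. Cox5a, a nuclear-encoded subunit of complex IV, stood between 1402 and 3090 nCPM (2216 ± 538, n = 6), against 135 ± 25.3 in stromal-like (n = 8) and 629 ± 221 in HC-like cells (n = 6), and its log2 fold change against other cells was 2.57 ± 0.19. Atp5g1, 1 of 3 genes for the c subunit whose ring rotates in the ATP synthase, stood at 1886 ± 128 nCPM in neuron-like cells and between 122.7 and 564 in the means of the other 13 classes (2.0 ± 0.14). Atp5g3, a second gene for it, was higher too (1.84 ± 0.14), whereas the neuron-like mean of Atp5g2, at 389 ± 36.3 nCPM, lay inside the range of the other classes. Cox7b (1.96 ± 0.18), Ndufa4 (1.66 ± 0.19), Uqcrq (1.75 ± 0.15) and the assembly factor Ndufaf5 (2.40 ± 0.22) were also higher.

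Isoform genes of complex IV had the sharpest class patterns. Cox8b and Cox8a encode alternative forms of the small subunit 8, and their promoter windows are shown because they were high in different classes (same build and span). Cox8b lies on chromosome 7 from 140898942 to 140900446 (window chr7:140900397-140900696, minus strand) and Cox8a on chromosome 19 from 7215158 to 7217616 (window chr19:7217567-7217866, minus strand). Capitals mark matches to CCGGAAG, the ETS motif, read on the opposite strand as CTTCCGG, of which Cox8a has 2 and Cox8b none.
Cox8a: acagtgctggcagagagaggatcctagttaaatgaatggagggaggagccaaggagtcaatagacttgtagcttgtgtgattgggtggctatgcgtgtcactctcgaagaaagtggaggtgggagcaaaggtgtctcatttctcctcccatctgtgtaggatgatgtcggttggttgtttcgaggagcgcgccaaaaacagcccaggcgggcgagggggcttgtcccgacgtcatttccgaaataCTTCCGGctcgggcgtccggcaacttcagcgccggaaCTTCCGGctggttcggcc
Cox8b: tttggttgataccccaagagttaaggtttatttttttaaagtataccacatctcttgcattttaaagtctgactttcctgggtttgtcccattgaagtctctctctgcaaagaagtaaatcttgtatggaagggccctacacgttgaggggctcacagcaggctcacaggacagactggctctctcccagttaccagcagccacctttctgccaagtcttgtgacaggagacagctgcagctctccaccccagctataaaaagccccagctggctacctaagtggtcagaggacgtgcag

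Cox8b was higher in neuron-like cells than in other cells (3.65 ± 0.50), at 113, 319, 154, 236, 83.2 and 864 nCPM in Coch + Tmx P26 replicates 1 and 2, Coch + Tmx P33 replicates 1 and 2, Coch P12 replicate 1 and Coch P33. Even the lowest neuron-like value lay above all HC-like, SC-like and stromal-like values, which reached at most 51.0, 13.4 and 6.39 nCPM, the first of these from the single Cox8b UMI found in HC-like cells. In cHC-like cells Cox8b varied from 0 to 95.8 nCPM and in nonsensory epithelial-like cells from 7.68 to 86.4 nCPM. In the latter the 3 P33 libraries held 52.5 to 86.4 nCPM and the P12 and P26 libraries 7.68 to 14.0. Cox8a, the widely used form, was detected in every class and was higher in Reissner membrane-like cells (1.88 ± 0.10), where it ranged from 3881 to 6280 nCPM over 8 libraries, and the highest mean elsewhere was 2221 ± 420 nCPM in HC-like cells. It was the 1 nuclear gene of 83 that reached 2-fold higher in Reissner membrane-like cells, where 11.2% of all genes did.

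Cox4i2, the alternative form of subunit 4 known to respond to oxygen, was higher in nonsensory epithelial-like cells (2.81 ± 0.31), the 1 nuclear gene of 84 to reach 2-fold there, with 9.55% of all genes higher. At any fold 43 of the 84 were higher there and 1 was lower, with 23.9% of all genes higher. Cox4i2 stood between 12.3 and 49.4 nCPM in their 8 libraries (31.8 ± 15.8) and at 4.06 ± 1.65 in stromal-like cells, while the common form Cox4i1 had means of 1408 and 996 nCPM in the same classes. In SC-like cells Cox4i2 was higher than in other cells as well (1.42 ± 0.51), 1 of 2 nuclear genes with Uqcrq (8.53% of all genes), with 4.80 to 92.9 nCPM over libraries, and 11 of the 31 UMIs in SC-like cells came from the 11 cells of Coch + Tmx P33 replicate 2. The 11 pericyte or smooth muscle-like cells, too few for a test, held 27 UMIs of Cox4i2, 61 of Ndufa4l2 and 4 of Ndufa4 among 44166 nuclear UMIs, or 611, 1381 and 90.6 nCPM. Among the tested classes the means of Ndufa4l2, a relative of Ndufa4, were highest in endothelial-like cells (62.4 ± 54.2 nCPM, n = 3) and stromal-like cells (21.7 ± 16.7, n = 8). The endothelial-like mean came from 3, 2 and 2 UMIs, and Ndufa4l2 was not called there (edgeR, adjusted p = 0.136). In stromal-like cells Ndufa4l2 was higher than in other cells (1.92 ± 0.36), the 1 nuclear gene of 85 (7.11% of all genes). No other tested class had more than 2 of its UMIs in a library.

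Cox6a2, the heart and muscle form of subunit 6a, gave 39 UMIs in macrophage-like, 13 in lymphocyte-like and 1 in neuron-like cells and none in the other 11 classes tested, which allows up to 0.178 nCPM in stromal-like cells and up to 5.16 in HC-like cells (3 UMIs, counting error only). Its partner isoform Cox6a1 had means between 348 and 1431 nCPM in all classes. Cox6b2, known from testis, was higher in erythroid-like cells (2.70 ± 0.28), where it ranged from 16.3 to 166 nCPM over 8 libraries with a median of 112 and where 9.79% of all genes were higher, and had 1 UMI in all cHC-like cells. Cox7a1 was higher in cHC-like cells than in other cells (1.11 ± 0.29), at 49.7, 60.8, 98.5 and 152.4 nCPM in Coch + Tmx P26 replicates 1 and 2 and Coch + Tmx P33 replicates 1 and 2, followed by nonsensory epithelial-like cells at 51.0 ± 24.4 nCPM. The other nuclear genes higher in cHC-like cells were Ndufv3 (1.55 ± 0.22) and the complex I assembly factor Ndufaf6 (2.09 ± 0.36). Ndufaf6 stood at 38.0, 60.8, 43.6 and 39.1 nCPM in these libraries, at 0 to 16.4 in HC-like and at 0 to 14.4 in SC-like libraries. Its counts were small, with 5 UMIs from 6 cells behind the 60.8. No HC-like library held more than 3 UMIs of it and no SC-like library more than 4. Neuron-like libraries stood at 15.2 to 25.9 nCPM. Thus 3 of 84 nuclear genes and 7 of 13 mt- genes reached 2-fold higher in cHC-like cells, where 12.7% of all genes did, and 2 mt- genes did with cells of 10% or more mt- UMIs left out.

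**Figure D4:**
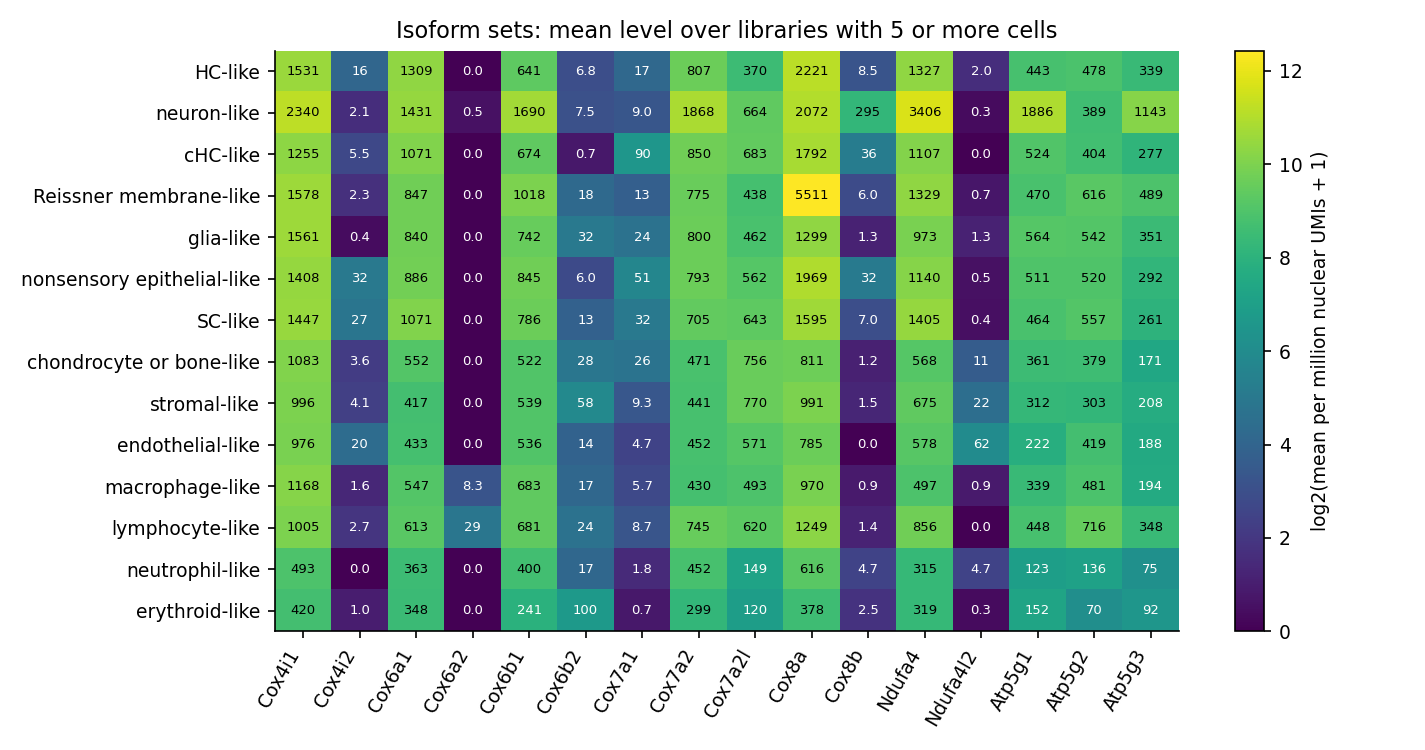
Mean level over libraries of isoform genes (columns) in each class (rows), in nCPM, printed in the cells, with colour for log2 of the mean plus 1. Cox8b is at 295 nCPM in neuron-like cells, Cox8a at 5511 in Reissner membrane-like cells, Cox4i2 at 31.8 in nonsensory epithelial-like cells and Cox7a1 at 90.4 in cHC-like cells.

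HC-like cells had 10 of 13 mt- genes 2-fold higher and no nuclear gene (8.12% of all genes higher), with 3 nuclear genes lower, Cox8b, Cox6b2 and Cox7a2l (21.1% of all genes lower). The mt- count was 3 without Coch P33, 4 without either Coch P12 library and 2 with cells of 25% or more mt- UMIs left out. Glia-like cells had 9 of 13 mt- genes higher (10.6% of all genes), but 2 with DESeq2 and 0 without Coch P12 replicate 1, whose glia-like sum held 47.1% mt- UMIs against 4.24% to 11.7% in the other 4. Neutrophil-like and erythroid-like cells were at the low end of the mt- share of all UMIs. In neutrophil-like cells 13 of 13 mt- genes and 39 of 82 nuclear genes were 2-fold lower, where 45.4% of all genes were, and the nuclear median of -1.0 lay above that of all genes, -1.38. Erythroid-like cells had 2 mt- and 3 of 84 nuclear genes lower, with 34% of all genes lower, and Cox6b2 and, just past 2-fold, mt-Nd6 (1.01) higher. Their median log2 fold changes, -0.57 for mt- and -0.10 for nuclear genes, lay above that of all genes, -0.73. No mt- gene was higher without Coch + Tmx P26 replicate 2, Coch P12 replicate 2 or Coch P33. With DESeq2 size factors 8 mt- and 15 nuclear genes were lower, and the mt- count was 0 without either Coch + Tmx P33 library and 5 without Coch P12 replicate 2 (5 nuclear genes as well) or Coch P33. Lymphocyte-like cells had 11 mt- and 10 of 84 nuclear genes lower, with 42% of all genes lower, and no member higher, with 8.25% of all genes higher. Their median log2 fold changes were -1.12 for mt- and -0.46 for nuclear genes, against -0.96 over all genes. When library sizes left out the mt- genes, 5 of each were lower, without Coch P12 replicate 1 these were 7 mt- and 5 nuclear genes, and without Coch + Tmx P26 replicate 2 the mt- count was 5. Endothelial-like cells (3 libraries) had 23 of 83 nuclear genes lower, against 8% of all genes, but 14 with DESeq2 size factors, 0 with the DESeq2 test, 1 without Coch P12 replicate 1 and 2 without Coch P12 replicate 2, and none higher (3.8%). In chondrocyte or bone-like cells no member passed in either direction (4.8% of all genes higher, 10.2% lower). Stromal-like cells had 5 of 85 lower (15.4% of all genes), among them Cox5a (-1.69 ± 0.12) and Uqcrq (-1.19 ± 0.10), and at any fold 57 of the 85 nuclear and 12 of 13 mt- genes were lower, with 26.2% of all genes.

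With age, none of the 99 genes passed the threshold in SC-like, HC-like, nonsensory epithelial-like or macrophage-like cells when P26 and P33 libraries were compared with P12 libraries. The edgeR test called 0.429% of 4659 genes in SC-like (0.107% higher and 0.322% lower at the later ages), 0.0448% of 2231 in HC-like, 1.3% of 8791 in nonsensory epithelial-like and 0.015% of 6645 in macrophage-like cells, and DESeq2 called 0 members in each. Without the library labelled Coch + Tmx P26 replicate 3 the count stayed at 0 in the 3 of these classes in which it was used. In HC-like cells 10 of 13 mt- genes had positive log2 fold changes, with a median of 0.33. With Coch + Tmx P33 as the later group alone, 9 of 79 members of HC-like cells were lower (8 mt- genes and Cox5b), 11.4%, against 9.07% of all genes, and in nonsensory epithelial-like cells Cox8b was higher (2.73) and Cox4i2 lower (-1.70), with 1.26% of all genes higher and 1.86% lower. Unadjusted p values under 0.05 were found for 15 of 87 members in SC-like (17.2%, against 12.9% of all genes), 0 of 82 in HC-like (against 8.79%), 7 of 95 in nonsensory epithelial-like (7.37%, against 13.7%) and 3 of 91 in macrophage-like cells (3.3%, against 10%). In SC-like cells the log2 fold changes of all 13 mt- genes were negative, from -0.94 to -0.13, as were those of all 13 in macrophage-like cells. The mt- share of SC-like sums was 7.69% and 8.93% at P12 and 4.56% to 6.09% at the later ages, without overlap, and that of macrophage-like sums was lower without overlap as well, whereas HC-like and nonsensory epithelial-like sums overlapped. Among nuclear genes Atp5o, a stalk subunit of the ATP synthase, had the lowest adjusted p in SC-like cells, at 378 and 347 CPM at P12 and 134, 168, 143 and 180 CPM in the library labelled Coch + Tmx P26 replicate 3, in Coch + Tmx P33 replicates 1 and 2 and in Coch P33 (-1.21 ± 0.27, adjusted p = 0.101). The P12 SC-like cells were mostly of a Tectb- and Umodl1-led subcluster (26 of 30 and 6 of 9), and those of the library labelled Coch + Tmx P26 replicate 3 and of Coch P33 all of a Ceacam16-led one (31 of 31 and 25 of 25).

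**Figure D5:**
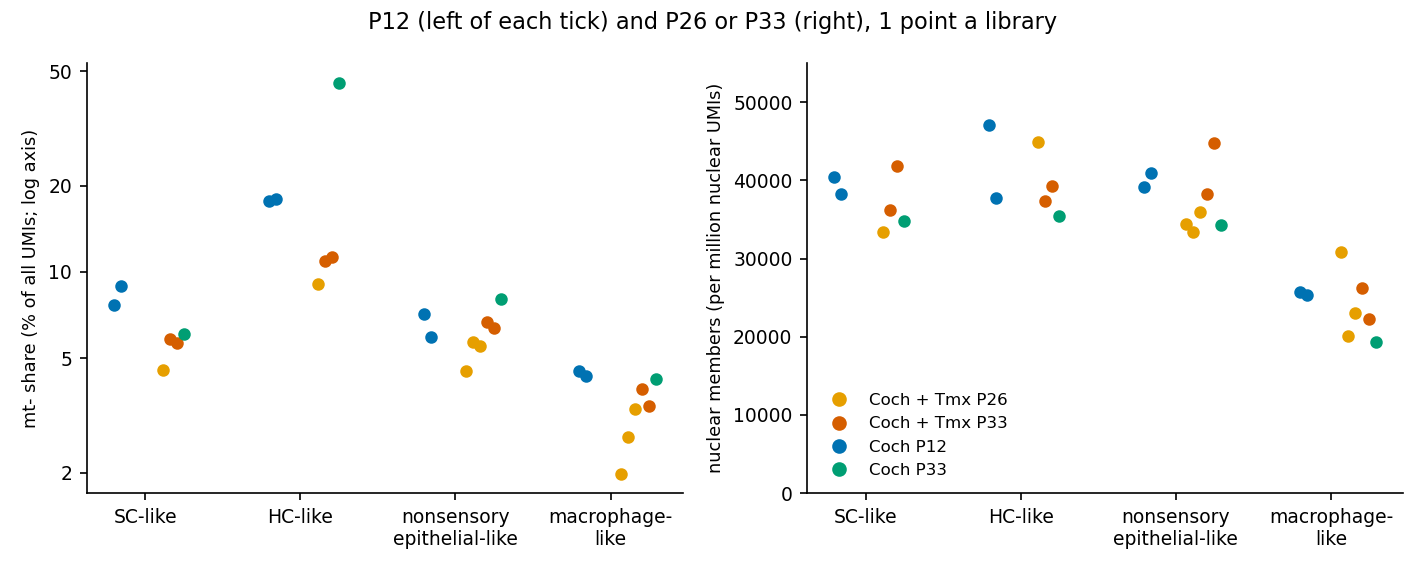
The mt- share of UMIs (left, log axis) and the sum of the 86 nuclear genes in nCPM (right) in 4 classes, with P12 libraries to the left and P26 or P33 libraries to the right of each tick; each point is 1 library. The mt- shares of P12 lie above all later ones in SC-like and macrophage-like cells and overlap them in HC-like and nonsensory epithelial-like cells, and the nuclear sums overlap in all 4 classes.

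Other genes of energy metabolism were read from lists beside the members. Of all genes tested in cHC-like against SC-like cells, 20.1% were higher and 16.2% lower, and the counts below are to be read beside these shares. In cHC-like against SC-like cells, 0 of 4 tested genes of complex II, which feeds electrons from succinate into the chain, and 0 of 4 tested genes around cytochrome c passed the threshold. Of 18 further assembly factors 3 were higher, led by Sco2 (2.66), a copper chaperone of complex IV, and 4 were lower, among them Higd1a (-1.17). Glycolysis had 3 of 14 genes higher and 6 lower. Hexokinase Hk2 averaged 217 CPM in SC-like cells against 24.1 in cHC-like cells (-3.18 ± 0.39), Aldoc fell by 3.24, Pkm by 1.49 and Gapdh by 1.98 on the log2 scale, and Gpi1 (2.04) and Aldoa (1.52) rose. Pfkp, the third that rose, had 0 CPM in both SC-like sums and 79.0 and 73.8 CPM in the cHC-like sums. The tricarboxylic acid cycle had 3 of 16 higher, Ogdh (2.3), Idh3a (2.10) and Dlst (1.97), and Idh2 lower (-2.65). Ckmt1, the mitochondrial creatine kinase, was higher (4.28 ± 0.94) and Slc25a4, an ADP and ATP carrier, lower (-0.65) among 10 genes for ATP and phosphate exchange. Lrpprc, which stabilises mitochondrial mRNAs, was the 1 of 6 genes for the upkeep of mitochondrial DNA and RNA that was called (3.06 ± 0.68). Of genes for calcium and oxidant handling 2 of 7 were lower (Gpx4 and Sod2), of the mitochondrial ribosome 3 of 66 were higher and 4 lower, and of the cytosolic ribosome 11 of 98 were higher and 4 lower. Of the lists for RNA quality and for the dissociation response, 1 gene of 2 and 1 gene of 7 were lower, Malat1 and Jun.

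In HC-like against SC-like cells, 19.2% of all tested genes were higher and 13.8% lower. Among 3 tested genes around cytochrome c, Cyc1 (1.36 ± 0.35), a complex III subunit outside the symbol prefixes, and Cycs (0.95 ± 0.26) were higher. Of 90 cytosolic ribosome genes 30 were lower. Of 8 glycolysis genes 4 were lower, Hk2 (-2.68), Ldhb (-2.05), Eno1 (-1.20) and Pkm (-1.09), and none was higher. Pdhb was higher (1.56) and the creatine kinase Ckb lower (-1.57). Called in the remaining lists were Uqcc2 as higher among 11 assembly factors, Mrps18a as higher and Mrpl51, Mrpl57 and Mrps14 as lower among 27 genes of the mitochondrial ribosome, and Gpx4 and Sod2 as lower among 5 for calcium and oxidant handling, with no call among 3 tested genes of complex II, 1 for mitochondrial DNA and RNA, 1 for RNA quality and 5 for the dissociation response.

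Promoter windows of 300 bases were found for 72 of the 86 nuclear genes, 78 windows in all, and were searched on both strands for 4 short motifs. GCATGCGC, the core of the NRF1 motif, was in 14.1% of them and in 2.71% of all 32851 windows. AAGATGGC, the YY1 motif, was in 15.4% against 2.75%, CCGGAAG, the ETS motif, in 19.2% against 8.86%, and GGGCGG, the GC box, in 41.0% against 35.7%. NRF1 and the ETS factor GABP are known regulators of nuclear genes of the respiratory chain. These are matches of letters, given as a description, and the motifs were not compared with the measured levels.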

How the data were processed

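The authors deposited UMI counts per gene and barcode for each of the 8 libraries, made from Chromium Single Cell 3′ v2 reads with Cell Ranger against mm10 (per the labels and the submitters' processing notes; the version of Cell Ranger is not given in the sources used here). Counting at the 3′ end gives no length-corrected levels. Of 8061 deposited barcodes, 1954 with fewer than 500 genes were left out (hemoglobin genes gave 93.8% of their UMIs), as were 42 barcodes called doublets by a simulated-neighbour score, at 0.8% of barcodes per 1000 in a library. No ceiling was set on the mt- share, since it would select on the values described, and 83 of the 6065 cells had 25% or more mt- UMIs.

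Cells were clustered in scanpy 1.11.5 (2000 variable genes, 30 principal components, 15 neighbours, Leiden resolution 1, seed 1, leidenalg 0.10.2, Python 3.11.15, scikit-learn 1.9.0) with the members, the gene lists and Atoh1 kept out, 428 genes in all. This gave 32 clusters, of which 24 were named from 3 or more markers, in 15 classes, and 1425 cells stayed unnamed. The 638 cells of 5 epithelial clusters were clustered again into 14 subclusters. The HC-like class is the 2 subclusters named so, and the cHC-like and SC-like classes are each 1 cluster of the first clustering without the cells of these 2, so that a subcluster can hold cells of both. Classes were built from other genes of the same cells, p-values between them hold for these classes only, and the names may differ from those of the study. Free RNA in droplets adds UMIs to all classes.

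For each library, the raw counts of a class with 5 or more cells were added up and tested with edgeR 4.0.16 (quasi-likelihood, TMM, filterByExpr, R 4.3.3), with the library as a block where classes were compared, and with Benjamini-Hochberg adjustment over all tested genes at 0.05. Comparisons of a class with other cells also required 2-fold. The cHC-like against SC-like fit had 4 sums. Shares were taken of all UMIs for mt- genes and of nuclear UMIs for nuclear genes. The study calls its replicates biological, but the labels do not tie libraries to mice, so p-values measure the spread between these libraries, part of which may be technical. The library totals of 3972800 to 13423524 UMIs and the cells per class limit the precision, and intervals and floors cover counting error only. Reads of nuclear genes with near-identical copies may have been lost or shared.

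The text names all tested mt- genes, up to 12 nuclear genes in each direction that passed the threshold and moved the same way in every pair, and the isoform genes whatever their result. Genes named outside this rule were chosen after their values were seen. The members and lists were chosen with earlier results of these data known, and the lists (12 in number) support nothing by themselves. Alternatives were other scalings, DESeq2 1.42.0, no filter on low counts, 10 cells as the minimum, ceilings of 25% and 10% on the mt- share, no library block, a replicate block, single ages and each library left out. The test scripts were checked on simulated counts. Promoter windows came from RefSeq on GRCm38.p6, the build named mm10, by symbol.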

Additional observations from a re-analysis of the deposited data

Results flagged for a closer look

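In 24 groups of 4 to 8 libraries, the mt- share and the nuclear level of each class were read for a library that stood far from the others, which chance alone gives in about 1 of 20 groups. The HC-like cells of Coch P33 held 45.7% mt- UMIs, against 9.10% to 18% in the other 5 libraries. Glia-like cells of Coch P12 replicate 1 stood apart in both measures, with 47.1% mt- UMIs and a nuclear level of 49266 nCPM, from 11 cells. In Coch + Tmx P26 replicate 2 the nuclear level was low in lymphocyte-like cells, at 27773 nCPM, and in neutrophil-like cells, at 10494 nCPM. The mt- share of stromal-like cells was highest in Coch P33, at 5.71%.

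Outside the cells used, the 1954 barcodes with fewer than 500 genes carried mt- transcripts. Over all libraries the mt- genes gave 28.9% of their UMIs that were not from hemoglobin genes, and 6.96% to 43.8% in single libraries.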

How the results depend on the processing

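Of the cHC-like against SC-like calls (29), 13 were made with the DESeq2 Wald test (14.8%, against 6.05% of all genes). With cells of 10% or more mt- UMIs left out 2 were made (2.47%, against 19.3%), and mt-Co1 reversed to -0.12. The 14 calls of HC-like against SC-like became 4 without a filter on low counts (4.08%, against 11.4% of all genes). When single libraries were left out they became 3 to 12. There were 3 without Coch P12 replicate 1 (3.75%, against 15.1%) and 6 without replicate 2 (7.23%, against 19.7%). The 0 calls of cHC-like against HC-like became 2 without the filter (2.06%, against 5.08% of all genes). They became 0 to 18 when single libraries were left out, 18 without Coch + Tmx P26 replicate 1 (20.5%, against 24.1%). With age, the 0 calls in nonsensory epithelial-like cells became 1 without the filter (Cox8b, 1.02%, against 3.27% of all genes). With Coch + Tmx P33 alone as the later group they became 2 (2.11%, against 3.12%). In the same setting the 0 calls in HC-like cells became 9 (11.4%, against 18.7% of all genes). There mt-Co2, mt-Co3, mt-Nd1, mt-Nd2 and mt-Nd4 reversed to -0.90, -0.93, -1.03, -1.47 and -1.15. With the replicate block, 4 members (Atp5o, mt-Nd2, mt-Nd4l and mt-Nd5) were called in SC-like cells with age and 0 in the other 3 classes. In SC-like cells this was 4.82% of the tested members, under the 13.3% of all genes called. Same-numbered libraries did not deviate together (correlations of -0.0416 to 0.0726), so the replicate numbers were not read as pairs. The nuclear level of erythroid-like cells was 17931 nCPM with barcodes of 1000 or more genes only. The 200 class and member pairs were 150 to 208 when single libraries were left out. The cause was not tested for any of these. Other counts of whole comparisons stayed within 1.5 times, while counts for single classes could move more, as given with the classes, and without a filter on low counts the nuclear genes lower went from 3 to 8 in HC-like, from 2 to 6 in macrophage-like and from 3 to 6 in Reissner membrane-like cells. Of single genes outside the fits that left out a library 1373 values kept direction and side of the threshold, 76 lost a call, 19 gained it and 6 reversed. No value could be had for cHC-like against SC-like without either library, nor for the other comparisons of HC-like cells at 10 or more cells or under 10% mt- UMIs, and 2 classes and 1 class had no fit in these settings. The HC-like sums of 5 to 8 cells in 5 of 6 libraries limit the comparisons of these cells, and 2 pairs of sums that of cHC-like with SC-like cells.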
